A study of Talinum fruticosum with 24 samples.

Results

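A set of 66 features counted in leaf RNA of Talinum triangulare was higher in leaves sprayed with abscisic acid (ABA) than in mock-sprayed leaves. This held at each of 5 successive harvests, from 80 min to 1280 min after the first spray. The members were chosen from the measured values. Features averaging 10 or more counts across the 24 libraries were each given a difference at every harvest, the mean log2(CPM + 1) of the ABA libraries minus that of the mock libraries, and a member had to reach a difference of at least 1 at each harvest from 80 to 1280 min. Over all features, 1.86% reached it at 80 min; the share was 4.17% at 160 min and 4.68% at 320 min, and later 4.48% at 640 min and 8.58% at 1280 min. CPM are counts brought to one library size with TMM factors, a correction that sets libraries to a level at which most features do not differ. Of 20617 features with counts, 16461 met the count minimum, and the 66 members are 0.401% of these. All differences from 80 min on are therefore a description of the choice and carry no test, whereas the differences at 40 min played no part in it and were tested. The 40 min libraries entered the choice through the count minimum and the scaling.

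Leaves of 2-month-old plants raised from seed received 200 µM ABA in dilute methanol with a wetting agent, or the same solution without ABA (mock), 4 h after the lights came on in a day of 12 h light, and were sprayed again after another 4 h. The harvests doubled in time, at 40 min, 80 min and 160 min, then 320 min, 640 min and 1280 min counted from the first spray, which gave 6 ABA groups and 6 mock groups. Each of the 12 groups held 2 libraries from different plants, and the 2 treated leaves of a plant were pooled. The harvest at 640 min lay 2.67 h into the night and that at 1280 min 1.33 h into the next light period, so the effects of duration and of the hour of harvest cannot be told apart, nor can the repeated spraying, which preceded the harvests from 320 min onward.

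ABA is the hormone of the plant drought response. In land plants its binding to soluble receptors blocks a group of protein phosphatases that hold the pathway off, which frees SnRK-family kinases to activate transcription factors that switch on stress genes such as those for late embryogenesis abundant proteins. The same pathway also induces its own phosphatases and enzymes that break ABA down. Talinum triangulare can change from ordinary photosynthesis to crassulacean acid metabolism, in which carbon dioxide is fixed at night, and ABA is known as a trigger of that change in several succulent plants. The identifiers come without gene names in the files. The members are therefore given no gene name, role or sequence here, and leaf marker genes were not examined.

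Libraries held 16577222 to 26846579 counts, and TMM factors ran from 0.663 to 1.68. Members took 0.461% to 2.39% of the counts in the ABA libraries from 80 min on and 0.0892% to 0.303% in the mock libraries. In bulk leaf RNA, more cells that express a transcript and more transcript per cell cannot be told apart.

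At 40 min, before the harvests that defined the set, 10 of the 66 members already rose with ABA and 0 fell (edgeR quasi-likelihood test, adjusted p from 2.51e-06 to 0.0312 for the 10). Over all 17561 tested features, 0.125% were called higher and 0.00569% lower at that harvest, against 15.2% of the members called higher. Of the 10 calls, KMT01536 (adjusted p = 0.0312) was lost without mock replicate 2 (0.346), ABA replicate 1 (0.152) or ABA replicate 2 (0.318), and KMT20365 (0.0013) without mock replicate 2 (0.0513), all by edgeR; both are named after their values were seen. With these, 24 members had an unadjusted edgeR p under 0.05 in the upward direction and 0 in the downward one, against 1.92% and 2.03% of all tested features, and DESeq2 called 13 members higher, against 0.228% of features, and 0 lower. The difference was above 0 in 54 of the 66, against 49.8% of all features, and it was at least 1 in 15, against 0.188%. Its median was 0.29 over the members and 0.00 over the 16461 features (-0.000398). Both ABA libraries lay above both mock libraries for 37 members, against 16.7% of all features, and below them for 4 members, against 16.3%.

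**Figure D1:**
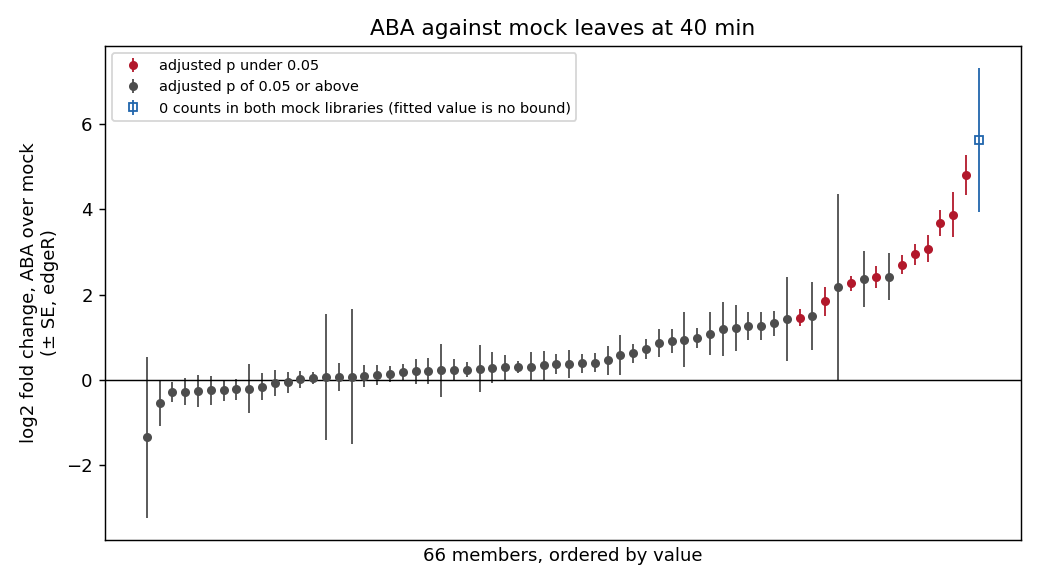
Log2 fold change of ABA over mock leaves at 40 min (vertical axis, edgeR estimate ± SE, 2 libraries per group) for each of the 66 members, ordered by value along the horizontal axis. Red points mark the 10 members past the adjusted p threshold, and the open square marks 1 member with 0 counts in both mock libraries, whose fitted value is no bound.

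The member with the largest called increase at 40 min was KMS96920. It had 7.10 and 6.20 CPM in the ABA libraries, against 0.373 and 0.108 CPM in the mock libraries. The groups lay far apart, though the mock libraries held only 8 counts together, and the log2 fold change was 4.81 ± 0.47 (SE; edgeR adjusted p = 1.81e-05). Its level with ABA went on to 15.7 and 21.8 CPM at 80 min, 32.6 and 46.4 at 160 min, 40.1 and 47.0 at 320 min, 11.8 and 20.5 at 640 min and 3.88 and 6.01 at 1280 min. In mock leaves its 10 later values stayed between 0.200 and 0.919 CPM, so the ABA level described an arch above a mock level that itself was highest at 320 min.

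KMT04465 was the second. It had 5.32 and 8.37 CPM with ABA at 40 min, against 0.436 and 0.484 CPM in mock leaves, which is 3.88 ± 0.52 on the log2 scale (SE; edgeR adjusted p = 0.0013). Here the later course had 2 crests. The ABA libraries held 30.7 and 62.6 CPM at 80 min, 58.2 and 41.9 at 160 min, 10.8 and 11.4 at 320 min, 10.0222 and 14.3 at 640 min and 151 and 112 at 1280 min. The mock libraries were also highest at 1280 min, with 3.61 and 4.05 CPM, and held at most 0.919 CPM at every earlier harvest. Both treatments were thus highest at 1280 min, where the fitted fold of ABA over mock was 33.7.

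The other 8 members called at 40 min had fitted increases of at least 2.76-fold. Mock levels of the 10 at 40 min ran from 0.240 to 8.52 CPM with a median of 5.09 CPM, and those of the 56 uncalled members from 0 to 649 CPM with a median of 6.29 CPM. The median difference at 40 min was 2.42 for the 10 and 0.22 for the 56, and the 56 ranged from -0.45 to 1.31.

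The 10 early members stood above the others through the first day and no longer did so the next morning. Their median difference was 4.33 at 80 min, against 1.60 for the other 56, and 4.15 at 160 min, against 2.35. It was 3.81 at 320 min, against 2.28, and 3.40 at 640 min, against 1.79. At 1280 min the medians were 1.61 for the 10 and 2.01 for the 56. Across the 66 members the difference at 40 min went with that at 80 min (Pearson r = 0.78, Spearman rho = 0.48) and little with that at 1280 min (r = -0.11, rho = -0.07). These are descriptions over features that share the same libraries.

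Being called at 40 min did not by itself place a feature in the set. Of the 22 features called higher at that harvest, 10 were members, which is 45.5% of the 22 and 15.2% of the 66. Among the other 12, the difference was under 1 at 1280 min for 9, at 320 min for 6, at 640 min for 3 and at 80 and 160 min for 1 each, and 6 missed the rule at 1280 min alone.

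From 80 min on, the rule fixed the direction, and the members varied in size and in course. The median difference was 1.67 at 80 min, and it was 2.49 at 160 min and 2.51 at 320 min. In the night it was 1.94 and the next morning 1.93, while the median over all features stayed between -0.01 and 0.06. Every member had both ABA libraries above both mock libraries at all 5 harvests, as did 4.38% of the 16461 features. At the single harvests this held for 21.6%, 27.9%, 35.0%, 33.8% and 38.4% of features, in order of time. For 30 of the 66 the lowest of the 10 later ABA libraries exceeded the highest of all 12 mock libraries. The rule favours this order, and its share over all features was not computed. The test used elsewhere called 61 members higher at 80 min, 66 at 160, 320 and 640 min and 65 at 1280 min, where 4.08%, 8.55%, 13.6%, 11.2% and 23.3% of all tested features were called higher. No member was called lower at any of the 5 harvests, where 1.83%, 5.06%, 12.2%, 13.6% and 22.2% of features were. These counts follow from the choice of members, so they describe the set and are no test of it.

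**Figure D2:**
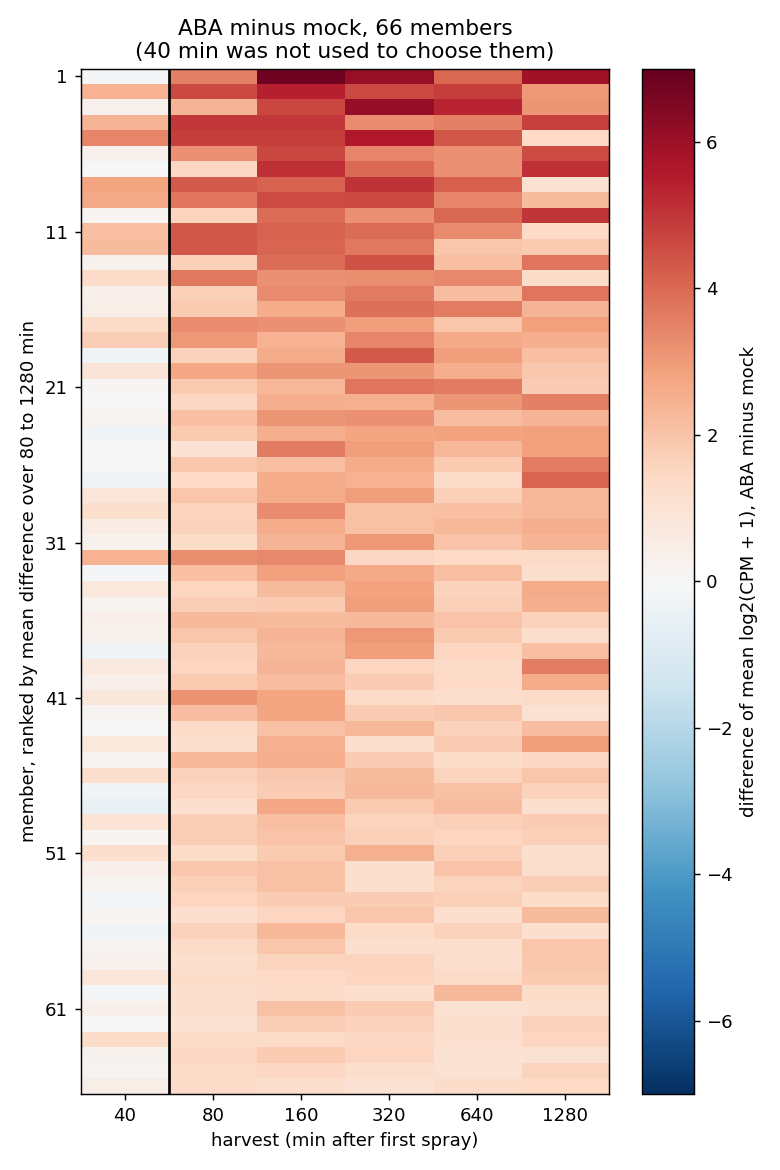
Difference of mean log2(CPM + 1), ABA minus mock (colour), for the 66 members (rows, ranked by their mean difference over 80 to 1280 min) at the 6 harvests (columns, min after the first spray). The differences left of the black line, at 40 min, were not used to choose the members and are pale for most rows, whereas the other columns reach 6.80 at 160 min.

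The threshold cut through a continuous range. The 3 members just inside had smallest differences of 1.0072, 1.0078 and 1.0093, and the 3 features just outside had 0.995, 0.990 and 0.982. There were 9 members with a smallest difference between 1 and 1.1 and 18 features between 0.9 and 1. The smallest of the 5 differences was that of 80 min for 22 members, that of 640 min for 19 and that of 1280 min for 18, with 6 at 320 min and 1 at 160 min.

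The largest of the 5 differences came at 160 min for 22 members, at 320 min for 21 and at 1280 min for 17. It came at 80 min for 5 members, KMT08925, KMT16058, KMT20365, KMS99219 and KMT03820, and at 640 min for 1, KMT06634; these 6 are named because their number is small, after their values were seen. All 5 members with the crest at 80 min already had positive differences at 40 min, from 0.78 to 2.23, and 3 of them were called there. Of the 17 members with the crest at 1280 min, edgeR called 0 at 40 min, where 0.125% of all tested features were called higher. Their differences there ran from -0.23 to 1.26, and 6 of the 17 had an unadjusted edgeR p under 0.05 in the upward direction, against 1.92% of all tested features. From 80 to 160 min the difference grew in 57 of the 66 members. From 160 to 320 min it grew in 28, from 320 to 640 min in 18 and from 640 to 1280 min in 41.

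The member with the largest mean difference over the 5 harvests, 5.26, was KMT03434. At 40 min it had 1.71 and 1.58 CPM with ABA, against 2.49 and 1.35 CPM in mock leaves, and the groups overlapped (log2 fold change -0.20 ± 0.58 SE; edgeR adjusted p = 1). At 80 min it had 19.7 and 37.5 CPM with ABA, against 2.15 and 0.930 CPM in mock leaves. By 160 min the ABA libraries held 657 and 625 CPM, against 4.22 and 5.41 CPM in the mock libraries. Its difference was -0.11 at 40 min and 6.80 at 160 min, the largest gain between those harvests among the 66 members. Its ABA libraries then held 155 and 259 CPM at 320 min, 220.2 and 139 at 640 min and 732 and 944 at 1280 min. The mock libraries held 2.56 and 1.48 CPM at 320 min, 11.4 and 8.38 at 640 min and 9.88 and 17.7 at 1280 min. Mock levels thus rose late in the series as well, and the fitted fold of 133 at 160 min compared with 18.0 at 640 min and 59.6 at 1280 min.

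KMT05175 had the second-largest mean difference, 4.51, and was already high at 40 min. It then had 25.7 and 26.9 CPM with ABA, against 3.61 and 4.41 CPM in mock leaves, which is 2.70 ± 0.23 on the log2 scale (SE; edgeR adjusted p = 2.54e-06). Its ABA level formed a plateau, with 86.3 and 99.0 CPM at 80 min, 90.5 and 96.7 at 160 min, 49.0 and 68.4 at 320 min, 59.98 and 88.6 at 640 min and 79.5 and 107 at 1280 min. The mock libraries held 2.31 and 3.28 CPM at 80 min, 1.08 and 1.33 at 160 min, 1.40 and 1.35 at 320 min, 1.41 and 1.78 at 640 min and 10.4 and 10.5 at 1280 min. From 80 min on, the difference was smallest, 3.02, at 1280 min, where the ABA level was near its plateau and the mock level was at its highest.

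**Figure D3:**
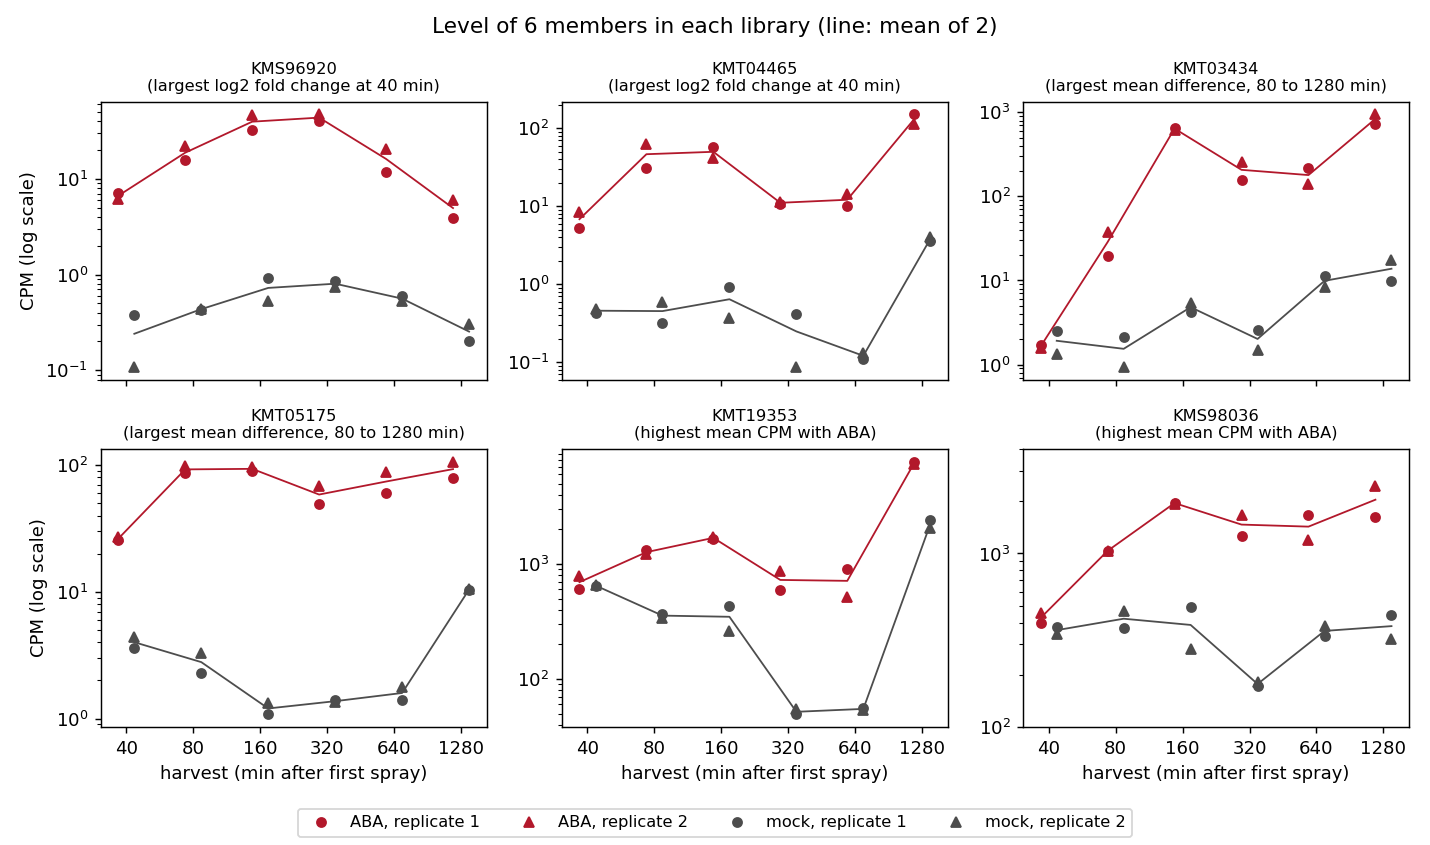
CPM on a log scale (vertical axis) in each of the 24 libraries for 6 members by harvest (min after the first spray, evenly spaced), with ABA libraries in red, mock libraries in grey, and lines through the means of 2 libraries. KMS96920, KMT04465 and KMT05175 are apart at 40 min, the groups of KMT03434 and KMT19353 overlap there, and all 6 are apart from 80 min on.

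Most members were of low or middling abundance without ABA. In mock leaves at 40 min, which bore on the choice through the count minimum, their median was 5.58 CPM, against 10.3 CPM over all features, and 47 of the 66 lay below that median. There were 14 members under 1 CPM, 33 between 1 and 10 CPM and 19 at 10 CPM or more, and 3 lay in the top 10% of features. With ABA from 80 min on, the mean level had a median of 40.7 CPM, against 11.5 CPM over all features in the same libraries. Then 55 members lay above the median feature and 20 in the top 10%.

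KMT19353 and KMS98036 had the highest mean levels over the later ABA libraries. KMT19353 had 611 and 778 CPM with ABA at 40 min, against 637 and 662 CPM in mock leaves, and the groups overlapped. In ABA leaves it held 1317 and 1215 CPM at 80 min, 1651 and 1721 at 160 min, 589 and 862 at 320 min, 913 and 513 at 640 min and 7756 and 7332 at 1280 min. In mock leaves it held 370.0 and 341 CPM at 80 min, 431 and 264 at 160 min, 49.2 and 54.4 at 320 min, 55.6 and 54.2 at 640 min and 2394 and 2042 at 1280 min. Its mock level varied 42.8-fold between harvest means, with the low at 320 and 640 min and the high at 1280 min. ABA leaves were also highest at 1280 min, and their means at 40, 320 and 640 min lay close together, at 694, 726 and 713 CPM.

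KMS98036 kept a steadier mock level, with a 2.38-fold span between harvest means. It had 397 and 454 CPM with ABA at 40 min, against 379 and 344 CPM in mock leaves, a small separation whose log2 fold change of 0.23 ± 0.25 (SE) did not pass (edgeR adjusted p = 1). In ABA leaves it held 1034 and 1036 CPM at 80 min, 1966 and 1937 at 160 min, 1266 and 1668 at 320 min, 1655 and 1200.05 at 640 min and 1633 and 2449 at 1280 min. In mock leaves it held 373 and 469 CPM at 80 min, 493 and 282 at 160 min, 171 and 183 at 320 min, 336 and 379.9 at 640 min and 439 and 323 at 1280 min. From 160 min on its ABA level stayed above 1200 CPM in all 8 libraries.

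Summed over the 66 members, the libraries of ABA leaves held 2362 and 2699 CPM at 40 min, against 1859 and 1868 CPM in mock leaves. The groups did not overlap, but an exact permutation test of 2 against 2 libraries cannot go below the two-sided p of 0.333 found here. At 80 min the sums were 6203 and 6188 CPM with ABA, against 1719.9 and 1752 CPM in mock leaves. At 160 min they were 10256 and 10256 CPM, against 2055 and 1273 CPM. These 3 harvests came before the second spray, and the ratio of the means widened to 3.57 and 6.16 at 80 and 160 min. At 320 min the sums were 6606 and 9001 CPM with ABA, against 849.7 and 893 CPM in mock leaves. At 640 min they were 7335 and 6671 CPM, against 1341 and 1484 CPM. At 1280 min they were 16975 and 18797 CPM, against 4154 and 3554 CPM, the highest sums in both treatments. KMT19353 and KMS98036 made up 53.6% of the 1280 min sum with ABA and 67.4% of that in mock leaves. Without them the ratio of ABA to mock means was 1.66 at 40 min and 4.06 at 80 min, then 7.12 at 160 min and 8.73 at 320 min, and later 4.86 at 640 min and 6.62 at 1280 min.

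**Figure D4:**
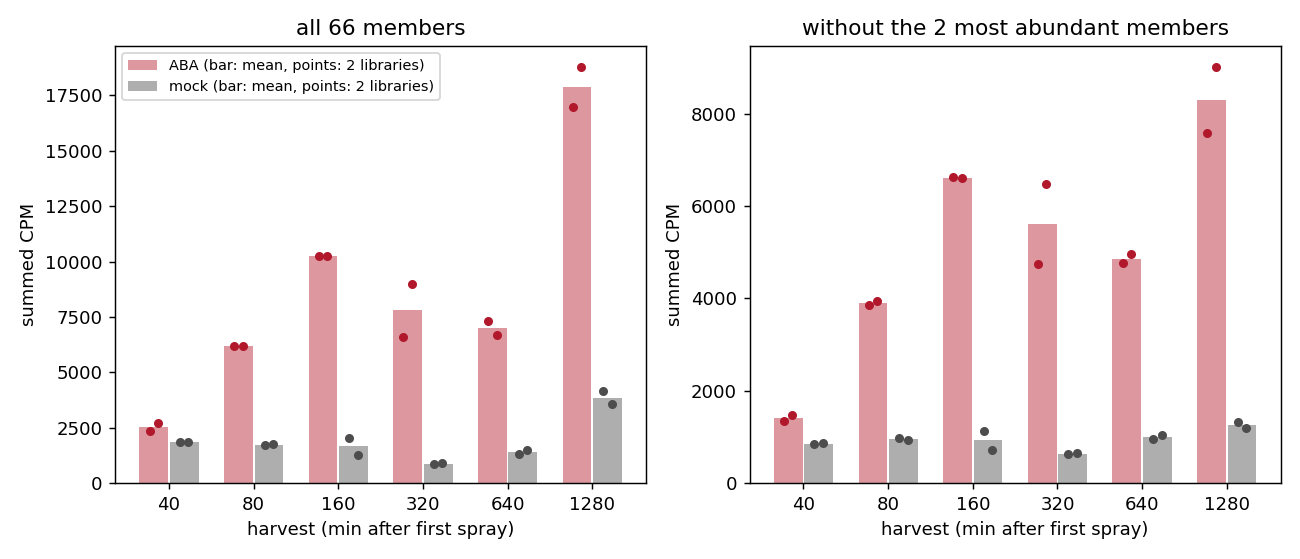
Summed CPM of all 66 members (left) and without KMT19353 and KMS98036 (right) by harvest (min after the first spray), with ABA in red left of mock in grey; bars are means and points the 2 libraries. ABA libraries lie above mock libraries at every harvest in both panels, by a ratio of means of 1.36 at 40 min and 8.95 at 320 min in the left panel.

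The members' levels in mock leaves moved over the day more than those of most features. The highest harvest mean was a median 6.70-fold above the lowest, against 2.77-fold over all features, though low levels are noisier and the rule favours low mock values. The mock mean was highest at 1280 min, in the morning, for 32 members (48.5%), against 29.1% of all features. It was lowest at 320 min, in the afternoon, for 30 members (45.5%), against 18.1% of features. Both mock libraries of 1280 min lay above both of 320 min for 50 of the 66, against 42.3% of features, and the ratio of the means had a median of 3.49 over the members and 0.99 over all features. A low mock value at 320 min favours membership and a high one at 1280 min works against it, so the 2 ends of this contrast bear differently on the choice. No test is attached to it.

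In ABA leaves, too, 1280 min gave the highest mean for 33 of the 66 members, against 25.9% of all features. A further 14 (21.2%) were highest at 80 min, against 9.18% of all features, and 8 (12.1%) at 160 min, against 6.34%. There were 6 (9.09%) at 320 min, against 19.2%, and 5 (7.58%) at 640 min, against 19.0%. At 40 min there were 0, against 20.3%. The rule asked for a difference at the 5 later harvests and for none at 40 min, which favours a highest ABA mean at a later harvest. These shares are a description and carry no test. The median level over members in ABA libraries was 39.5 and 62.8 CPM at 1280 min, against 10.2 and 10.5 CPM in mock libraries. Libraries of the same group differed for a median member by 0.43 on the log2(CPM + 1) scale with ABA at 1280 min and by 0.15 in mock leaves.

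Taken as medians over members, the ABA level was highest at 1280 min. The median difference was largest at 320 min, 2.51, close to the 2.49 of 160 min. Single members varied, and for KMS96920 the highest ABA level and the largest difference both came at 320 min. At 320 min the median member had 25.5 CPM with ABA, against 2.73 CPM in mock leaves, and at 1280 min 48.8 CPM with ABA, against 10.7 CPM in mock leaves. Both treatments were higher at 1280 min than at 320 min, mock leaves by the larger factor. The member KMS97889, singled out after its values were seen because its 5 differences spanned the narrowest range, moved with the time of harvest in both treatments. It had 176 and 114 CPM with ABA at 80 min, against 77.5 and 39.5 CPM in mock leaves, then 14.9 and 28.9 CPM with ABA at 320 min, against 7.13 and 6.94 CPM in mock leaves. At 1280 min it had 101 and 109 CPM with ABA, against 38.2 and 35.0 CPM in mock leaves. The difference lay between 1.20 and 1.4979 at the 5 harvests and was 1.26 at 40 min, where edgeR gave an adjusted p of 0.444. At the other end of the range, the 5 differences of a single member spanned 4.22, and the median span was 1.40.

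A pair of other sets was drawn by similar rules for comparison. One held 71 features with differences of at least 1 at 80 and 160 min but under 0.5 at 1280 min. The other held 81 features with differences under 0.5 up to 160 min and at least 1 at 640 and 1280 min. At 40 min edgeR called 10 of the 66 members higher, 6 of the 71 early features and 0 of the 81 late ones, against 0.125% of all tested features; the median differences were 0.29, 0.37 and 0.00 (0.00433), and staying under 0.5 at 40 min was part of the rule for the late set. At 320 min neither of those 2 sets had a rule, whereas members had to reach a difference of at least 1. The medians there were 2.51 for members, 1.15 for early and 0.87 for late features, an order that the rule for members favours. Mock levels at 40 min were lower in members than in the early features, with medians of 5.58 and 16.8 CPM, and 2.81 CPM in the late ones. The morning high in mock leaves was not particular to the members. The median mock level was 10.7 CPM at 1280 min and 2.73 CPM at 320 min for members, 39.5 and 7.60 CPM for early features, and 8.19 and 2.77 CPM for late ones. The rule for early features, a difference under 0.5 at 1280 min, favours a high mock level at that harvest. The rule for late features, a difference of at least 1 there, works against it. These differences between sets were not tested.

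**Figure D5:**
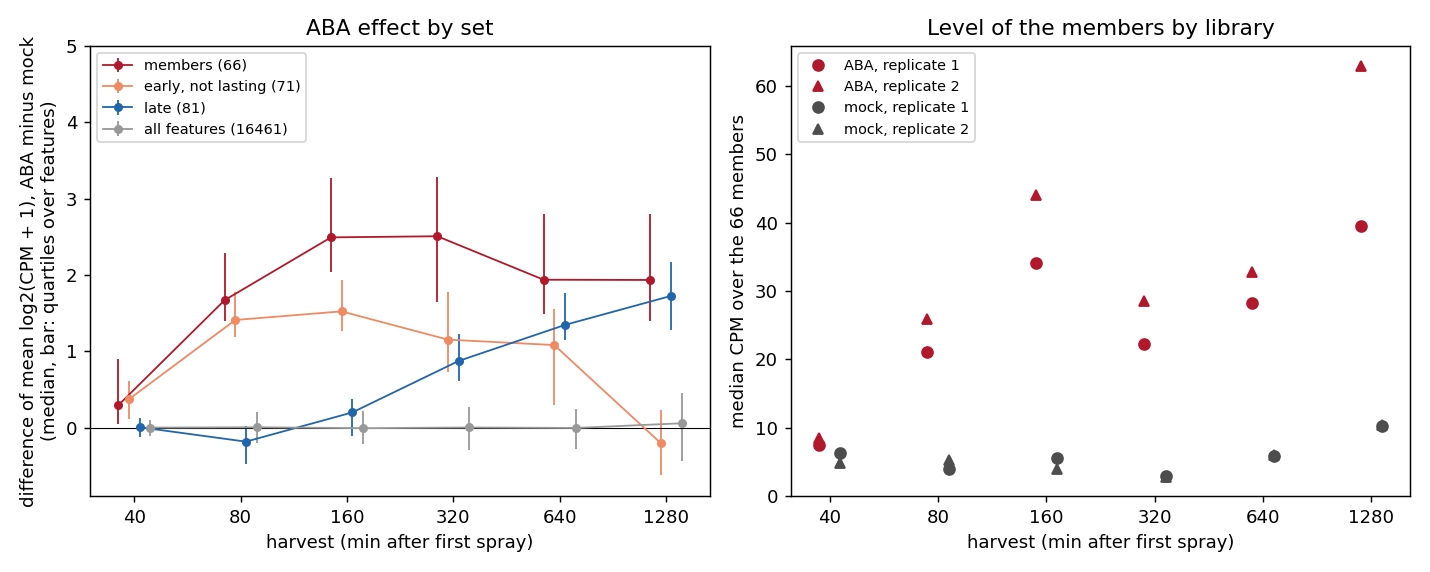
Left, median difference of mean log2(CPM + 1), ABA minus mock, with quartiles over features, by harvest (min after the first spray) for the 66 members, the 71 early features, the 81 late features and all 16461 features. Right, median CPM over the 66 members in each library, with ABA at 39.5 and 62.8 CPM and mock at 10.2 and 10.5 CPM at 1280 min.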

How the data were processed

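Leaf mRNA of 24 libraries was sequenced as single reads of 150 bp after strand-specific TruSeq library preparation, per the labels' protocols. The authors deposited raw counts, in whole reads for each feature and library, and features not listed were taken as 0. CASAVA, Trimmomatic and DESeq2 appear in the submitters' processing notes, with no version. How reads were aligned and counted, and whether strand was used, is not stated in the labels, so near-identical features may share reads. The members and the sets compared with them were chosen with earlier results of these data known.

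Analysis used R 4.3.3. Membership used TMM factors and totals over all features with counts. Tests used edgeR 4.0.16 (quasi-likelihood, robust, 1 mean per group over 24 libraries, 12 residual degrees of freedom) on 17561 features that passed its expression filter (minimum count 10), among them all 66 members. P-values are two-sided and Benjamini-Hochberg adjusted over those features, with a threshold of 0.05. SEs were derived from the fold change and its F statistic. The common biological coefficient of variation was 15.7%. The fit was checked on simulated counts that gave every feature this same spread and changed only features with many counts. That check does not cover members of few counts. No 2 libraries of a group agreed within sampling noise (lowest chi-square over degrees of freedom, 5.43). Identifiers are printed for the 2 members that rose most at 40 min, the 2 with the largest mean difference and the 2 most abundant with ABA; others are named after their values were seen. Alternatives were DESeq2 1.42.0, other scalings, filters and pseudocounts, a replicate block, and leaving out libraries. Intervals and floors hold for counting error alone and leave out differences between the libraries of a group. No molecular identifiers were used. The labels do not say which libraries shared a lane.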

Additional observations from a re-analysis of the deposited data

Results flagged for a closer look

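For 4 members both ABA libraries lay below both mock libraries at 40 min and above them at every later harvest, and the change of direction itself was not tested. The difference at 40 min was -0.23 for KMS99148, whose libraries held 2 and 2 counts with ABA and 6 and 5 counts in mock leaves. It was -0.22 for KMT03310, with 2.28 and 2.75 CPM with ABA, against 3.05 and 3.12 CPM in mock leaves. It was -0.45 for KMT08586, with 3.23 and 4.16 CPM with ABA, against 5.10 and 5.70 CPM in mock leaves. It was -0.20 for KMT18826, with 3.93 and 4.16 CPM with ABA, against 4.98 and 4.57 CPM in mock leaves. None of the 4 had an unadjusted edgeR p under 0.05 (0.229 to 0.485), and 16.3% of all features showed this order of libraries at 40 min. They are named after their values were seen.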

How the results depend on the processing

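The 10 members called higher at 40 min were 8 to 10 when 1 library of that harvest was left out (0.0968% to 0.114% of all features), 10 with RLE size factors (0.125%), 10 without a filter (0.116%), 12 with library size alone (0.159%), 13 with DESeq2 (0.228%) and 9 at a threshold of 0.01. The 9 at a threshold of 0.01 were among 18 features called higher, of 17561 tested. A fit to the 4 libraries of 40 min alone gave 17, with the same 10 among them, against 0.251% of all features. Same-numbered libraries of the 2 treatments did not deviate together (r from -0.14 to 0.13 over the 6 harvests), and with the replicate block 8 members were called (0.102% of features), without KMT01536 (adjusted p = 0.146) and KMT20365 (0.0627). The rule gave 35 members with log2(CPM + 5), 81 with log2(CPM + 0.5), 98 with library size alone, 65 when factors came from features of the count minimum alone (added after seeing the data), and 57 to 79 when libraries were left out. Without replicate 2 of both treatments, 44 of its 57 features were among the 66. The median difference at 40 min was 0.19 with log2(CPM + 5) and 0.23 to 0.39 with 1 library left out, and the log2 ratio of the summed CPM, 0.44, was then 0.34 to 0.53. Library size alone, applied to later harvests after seeing the data, gave medians over members of 1.58 at 80 min and 2.76 at 320 min, and of 2.27 at 640 min and 2.55 at 1280 min, but shifted the median of all features to -0.03, 0.21, 0.18 and 0.56. At 40 min the log2 fold change of KMT03434 turned to 0.29 without mock replicate 1 and was -0.60 without mock replicate 2, and that of KMT19353 turned to -0.089 without ABA replicate 2 and was 0.26 without ABA replicate 1; neither passed in any alternative. Over the 10 alternatives the adjusted p ran from 2.41e-05 to 0.346 for KMT01536, which passed in 6, and from 1.93e-08 to 0.0627 for KMT20365, which passed in 8; the other 8 members passed in all 10. Causes were not tested. Depth limits members of few counts, as the counting interval of KMT16408 at 40 min, 0.675 to 16.5, shows.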

Other observations

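A few members were almost without counts in mock leaves. KMS96215 had 3 counts over the 12 mock libraries and 0 in 10 of them. At 40 min the ABA libraries held 4 and 5 counts, against 0 and 0 in the mock libraries. With 3 counts taken as the floor of the mock group, the ratio of ABA to mock was 3.16. The exact 95% lower counting limit was smaller, 2.08, and the member was not called (edgeR adjusted p = 0.75). At 160 min the ABA libraries held 90 and 65 counts, against 0 and 0, a ratio of 43.8 by the same floor (lower counting limit 35.2). KMT16408 had 8 counts in the ABA group and 3 in the mock group at 40 min, a ratio of 2.81 (exact 95% counting interval 0.675 to 16.5), and 379 and 3 counts at 160 min, a ratio of 107 (36.4 to 522). KMT06401 had 5 counts in the ABA group and 1 in the mock group at 40 min, a ratio of 5.27 (0.590 to 249), and 2622 and 15 at 1280 min, a ratio of 115 (69.4 to 205). Its ABA counts at 1280 min were 2037 and 585, so replicate 1 held most of them. These 3 were the members with 0 counts in at least 1 mock library, and they are named after their values were seen. Their ratios at 160 and 1280 min come from harvests that chose the members and are a description. The limits hold for counting error alone, and libraries of a group differed by more than that.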
